A study of Mus musculus with 9 samples.

Results

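Polyamine metabolism was read through 9 genes, Odc1, Amd1, Srm, Sms, Azin1, Oaz1, Oaz2, Smox and Sat1, chosen by name as the synthesis, control and breakdown genes of the pathway and set beside 17492 protein-coding genes whose strand RefSeq's promoter table gives. For 7 of the 9 the start came from that strand, as in the background. For Srm and Azin1 it was taken as the end of the gene record with the strongest H3K4me3 summit within 1 kb. The series, by its title, addresses EZH2 as an activator of transcription where MYCN is expressed in T cell lymphoma. The chromatin came from thymic tumour cells of C57BL/6J mice, labelled as MYCN-driven T cell lymphoma cells, and all 7 immunoprecipitations and both inputs carry that description. The labels give no promoter or Cre for the MYCN allele, no age, sex or number of animals, and do not say whether the 7 libraries share a tumour. The titles of the inputs carry different identifiers, which the titles of the immunoprecipitations lack. Each antibody (N-MYC, p300, EZH2, SUZ12, H3K27ac, H3K4me3 and H3K27me3) gave 1 library made by ChIPmentation, in which a transposase adds adapters to antibody-bound chromatin. No value therefore has a replicate error or a p-value, and differences between lists cannot be told apart from differences between libraries.

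Polyamines (putrescine, spermidine and spermine) are small cations that bind nucleic acids and are needed for growth. Ornithine decarboxylase, encoded by Odc1, makes putrescine, and spermidine synthase (Srm) and spermine synthase (Sms) extend it with groups from decarboxylated S-adenosylmethionine, the product of Amd1. Antizymes (Oaz1, Oaz2) bind ornithine decarboxylase and send it to the proteasome, the antizyme inhibitor Azin1 releases it, and Sat1 and Smox acetylate and oxidise polyamines. Odc1 is a long-known target gene of MYC proteins, which bind E-box DNA such as CACGTG together with MAX.

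The label of the cells was checked on promoter marks. All 10 T-cell marker genes had H3K4me3 peaks, with fold enrichments from 24.2 to 41.8. H3K4me3 was called at 2 of 6 B-cell markers (Cd79a and Cd79b) with folds from 4.74 to 5.75, at 2 of 6 myeloid markers (Cd14 and Cebpa) with folds from 3.61 to 6.81, and at 0 of 6 endothelial and stromal markers. It was also called at 3 of 4 erythroid markers (Klf1, Hba-a1 and Epor, 18.3 to 19.8) and at 1 of 5 thymic epithelial markers (Epcam, 19.3). The part of other cells in the values below was not tested.

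All 9 genes had H3K4me3 and H3K27ac peaks within 1 kb of the gene start, and none had a SUZ12 or H3K27me3 peak there. At Srm and Azin1 the choice of start fixed the H3K4me3 peak, and among the 7 members with a strand in the table both marks were called at 7 and N-MYC, EZH2 and p300 at 5 each. Among all genes read, 49.6% had H3K4me3 and 49.8% had H3K27ac within that window, 12.2% had SUZ12 and 23.8% had H3K27me3. N-MYC was called at 7 of the 9 (all but Oaz2 and Smox), EZH2 at 7 (all but Oaz2 and Sat1) and p300 at 7 (all but Sms and Sat1), against 31.6%, 43.1% and 38.3% of all genes. Over the whole H3K4me3 peak that reached the window the counts were again 7, 7 and 7, and of the 8672 genes with such a peak 65.9% had N-MYC, 74.6% had EZH2 and 78.2% had p300. SUZ12 lay on 8.82%, H3K27me3 on 12.7% and H3K27ac on 93.3% of those promoters. The members' counts were thus close to the shares of promoters that carry H3K4me3. EZH2, N-MYC, p300, H3K27ac and H3K4me3 together, without SUZ12 or H3K27me3, were called at Odc1, Amd1, Srm, Azin1 and Oaz1. That is 5 of 9 members, against 23.4% of all genes within 1 kb and 50.3% of genes with an H3K4me3 peak.

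**Figure D1:**
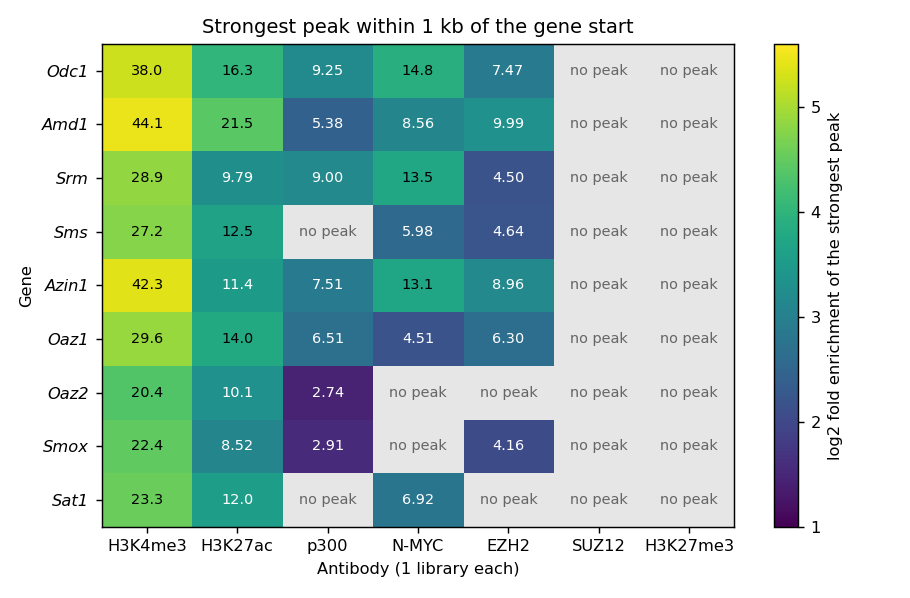
Fold enrichment of the strongest peak within 1 kb of the start (printed in each cell, colour on a log2 scale) for the 9 genes in rows and the 7 antibodies in columns, with 1 library per antibody; grey cells hold no peak. H3K4me3 and H3K27ac columns are filled for all 9 genes, the SUZ12 and H3K27me3 columns are empty, and N-MYC runs from 4.51 at Oaz1 to 14.8 at Odc1.

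Values below are the authors' fold enrichments, a linear ratio over background given for each peak. To place a value on the scale of its own list, its percentile is given: the percent of genes with a peak of that list within 1 kb of the start whose strongest peak had a lower fold enrichment.

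Odc1, on chromosome 12 from 17544808 to 17551502 of GRCm38 on the plus strand, encodes the first enzyme of the pathway. Its N-MYC peak (17544386 to 17545575) had a fold enrichment of 14.8 and a −log10 q of 55.9, the highest N-MYC value of the 9 genes and higher than at 98.5% of the 5536 genes with an N-MYC peak at the start. The p300 peak reached 9.25 (percentile 95.6), the EZH2 peak 7.47 (76.9), the H3K27ac peak 16.3 (69.97) and the H3K4me3 peak 38.0 (87.2). A second EZH2 peak of 4.06 lay beyond the window on the same H3K4me3 peak. N-MYC and p300 thus ranked higher in their lists than the histone marks did. Their summits lay 82 bp and 8 bp before the start, whereas the EZH2 summit lay 552 bp after it. Measured from the listed transcript start at 17544873, N-MYC and p300 lay 147 bp and 73 bp before and EZH2 487 bp after.

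The sequence before the Odc1 start is shown because the N-MYC summit falls inside it. Sequences are from RefSeq on GRCm38.p6, 5′ to 3′ on the gene's strand. They end at the base before the outermost start of the gene, except the Sms stretch before the inner start. That stretch is a short excerpt around a capitalised motif. Capitals mark CACGTG, a palindrome, and CACGCG, a variant E-box with reverse complement CGCGTG.
Odc1, chr12:17544623-17544807, plus strand: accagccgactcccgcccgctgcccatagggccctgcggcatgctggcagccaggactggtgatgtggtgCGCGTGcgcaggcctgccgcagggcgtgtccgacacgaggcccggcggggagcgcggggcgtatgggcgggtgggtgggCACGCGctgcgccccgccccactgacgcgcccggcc
The N-MYC summit is base 104 of this stretch. CGCGTG, from base 71, and CACGCG, from base 150, lie on either side of it, with their middles 31 bp and 48 bp away. CACGTG was not found in the Odc1 window, which in the promoter table runs from 250 bp before to 50 bp after a listed start and was 78.0% G or C, against a median of 56.3% over all windows.

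Amd1, on chromosome 10 from 40287458 to 40302188 on the minus strand, encodes S-adenosylmethionine decarboxylase. It had the highest H3K4me3 (44.1, percentile 97.7), H3K27ac (21.5, percentile 88.5) and EZH2 (9.99, percentile 93.3) values of the 9 genes. Its N-MYC value was lower than that of Odc1, at 8.56 (79.5), and p300 stood near the middle of its list at 5.38 (49.2). Its H3K4me3 peak held 3 separate N-MYC calls: 4.36 with a summit 204 bp before the start, 8.56 at 604 bp after it and 5.84 at 1438 bp after it. p300 and EZH2 were also called on both sides of the start, with folds of 4.99 and 4.61 before it. Taking the peak with the summit nearest to the start in place of the strongest would put Amd1 at percentile 18.3 for N-MYC and 29.3 for EZH2. The weaker upstream N-MYC summit is base 47 of the stretch shown here, which holds none of the motifs.
Amd1, chr10:40302189-40302438, minus strand: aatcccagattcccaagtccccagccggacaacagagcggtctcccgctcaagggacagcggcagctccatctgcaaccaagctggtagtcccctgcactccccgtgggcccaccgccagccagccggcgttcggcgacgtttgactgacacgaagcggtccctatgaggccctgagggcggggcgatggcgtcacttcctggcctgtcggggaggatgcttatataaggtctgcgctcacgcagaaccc
Amd2, a retrocopy of Amd1 elsewhere on chromosome 10, had H3K4me3 of 9.97 and H3K27ac of 4.18 at its start and no N-MYC, p300 or EZH2 peak. How reads shared by the copies were placed is not given in the sources used here.

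Srm, on chromosome 4 from 148591513 to 148594619, encodes spermidine synthase. N-MYC (13.5) and p300 (8.997) stood at percentiles 97.1 and 94.6, whereas EZH2 (4.50), H3K27ac (9.79) and H3K4me3 (28.9) stood at 21.7, 35.1 and 57.8. Srm was thus near Odc1 in N-MYC and p300 and far below it in EZH2. The N-MYC summit lay 116 bp and the p300 summit 169 bp before the start, and the EZH2 summit 250 bp after it. The other end of the gene record, 3 bp from the start of the complement-pathway protease gene Masp2, was met by the edge of the same H3K4me3 peak and by an H3K4me3 peak of 2.68.

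Sms, on chromosome X from 157443851 to 157492287 on the minus strand, encodes spermine synthase. It had N-MYC of 5.98 (percentile 49.2), EZH2 of 4.64 (24.2) in 3 separate calls, H3K27ac of 12.5 (51.0) and H3K4me3 of 27.2 (51.9), and no p300 peak. All of its values were lower than those of Odc1. RefSeq lists 2 starts for Sms, and 3 of the 4 lists had their strongest summit near the inner one at 157491368. N-MYC lay 117 bp, H3K27ac 180 bp and H3K4me3 54 bp before it, against 802 bp, 739 bp and 865 bp after the outer start. The EZH2 calls were spread between the starts, with summits 316, 624 and 829 bp after the outer one, the first 2 tied at 4.64. The windows of both starts hold an E-box, and they are shown because the N-MYC summit lies near only one of them.
Sms before the outer start, chrX:157492288-157492537, minus strand: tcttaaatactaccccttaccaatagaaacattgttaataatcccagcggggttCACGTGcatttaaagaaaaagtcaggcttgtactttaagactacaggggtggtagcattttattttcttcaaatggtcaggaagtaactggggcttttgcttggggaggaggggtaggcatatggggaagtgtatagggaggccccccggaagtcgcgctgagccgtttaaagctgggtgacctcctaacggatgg
Sms before the inner start, chrX:157491491-157491520, minus strand: ggagcgtcggtcCACGCGggctcgccgccc
The CACGTG of the outer window, at 157492478 to 157492483, lay 995 bp from the N-MYC summit, just past the edge of that peak at 157492476. The CACGCG of the inner window lay 20 bp from the summit.

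Azin1, on chromosome 15 from 38487430 to 38519294, encodes the antizyme inhibitor, a relative of ornithine decarboxylase without its enzyme activity. N-MYC (13.1) stood at percentile 96.6, p300 (7.51) at 84.9, EZH2 (8.96) at 89.1, H3K4me3 (42.3) at 95.5 and H3K27ac (11.4) at 43.7. A weaker EZH2 call (4.84) lay 414 bp before the start and the strongest 573 bp after it, and the nearer call would put Azin1 at percentile 34.5. The N-MYC and p300 summits lay 190 bp and 24 bp before the start. Odc1, Srm and Azin1 were the 3 members with the highest N-MYC percentiles, above Amd1 and Sms, the other synthesis genes, at 79.5 and 49.2.

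The antizymes differed from each other. Oaz1, on chromosome 10 from 80826656 to 80829290 on the plus strand, encodes an antizyme. It had a peak in 5 lists, with H3K4me3 of 29.6 (percentile 59.9), H3K27ac of 14.0 (58.9), p300 of 6.51 (71.4), EZH2 of 6.30 (59.5) and N-MYC of 4.51 (20.4). Its N-MYC peak was the weakest of the 7 members with one, 247 bp wide against 1190 bp at Odc1, with a −log10 q of 6.502. A CACGCG lay 212 bp before the start, outside that peak and 322 bp from its summit. Oaz2, on chromosome 9 from 65676548 to 65690300 on the plus strand, encodes a second antizyme. It had the lowest H3K4me3 value of the 9 genes (20.4, percentile 30.8), with H3K27ac of 10.1 (36.5), no N-MYC and no EZH2. Its p300 peak, 254 bp wide, had a fold enrichment of 2.74 and a −log10 q of 3.001, at percentile 0.403. The stretch before its start is shown as that of a member without N-MYC, and it holds none of the motifs.
Oaz2, chr9:65676298-65676547, plus strand: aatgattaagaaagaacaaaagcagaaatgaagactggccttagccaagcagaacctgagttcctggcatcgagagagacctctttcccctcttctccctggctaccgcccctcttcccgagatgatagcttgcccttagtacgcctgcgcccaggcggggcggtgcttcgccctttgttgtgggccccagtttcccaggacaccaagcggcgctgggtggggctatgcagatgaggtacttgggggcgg

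The catabolic genes each lacked calls, but of different lists. Smox, on chromosome 2 from 131491858 to 131525183 on the plus strand, encodes spermine oxidase. It had H3K4me3 of 22.4 (percentile 36.6), H3K27ac of 8.52 (27.9), EZH2 of 4.16 (14.0) and p300 of 2.91 (0.821), with no N-MYC peak on the promoter. The predicted gene Gm30679 starts 418 bp away on the opposite strand and on the same H3K4me3 peak, so the peaks cannot be given to Smox alone. Sat1, on chromosome X from 155213126 to 155216449 on the minus strand, encodes spermidine/spermine acetyltransferase. It had H3K4me3 of 23.3 (39.5), H3K27ac of 12 (47.7) and an N-MYC peak of 6.92 (63.2), with neither EZH2 nor p300. The N-MYC summit lay 111 bp before the start and is base 140 of the following stretch, in which neither CACGTG nor CACGCG occurs.
Sat1, chrX:155216450-155216699, minus strand: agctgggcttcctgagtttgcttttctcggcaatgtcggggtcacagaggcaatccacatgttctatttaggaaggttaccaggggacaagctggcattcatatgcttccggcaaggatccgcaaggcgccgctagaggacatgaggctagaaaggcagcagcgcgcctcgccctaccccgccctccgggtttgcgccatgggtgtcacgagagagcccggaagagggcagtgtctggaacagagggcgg

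**Figure D2:**
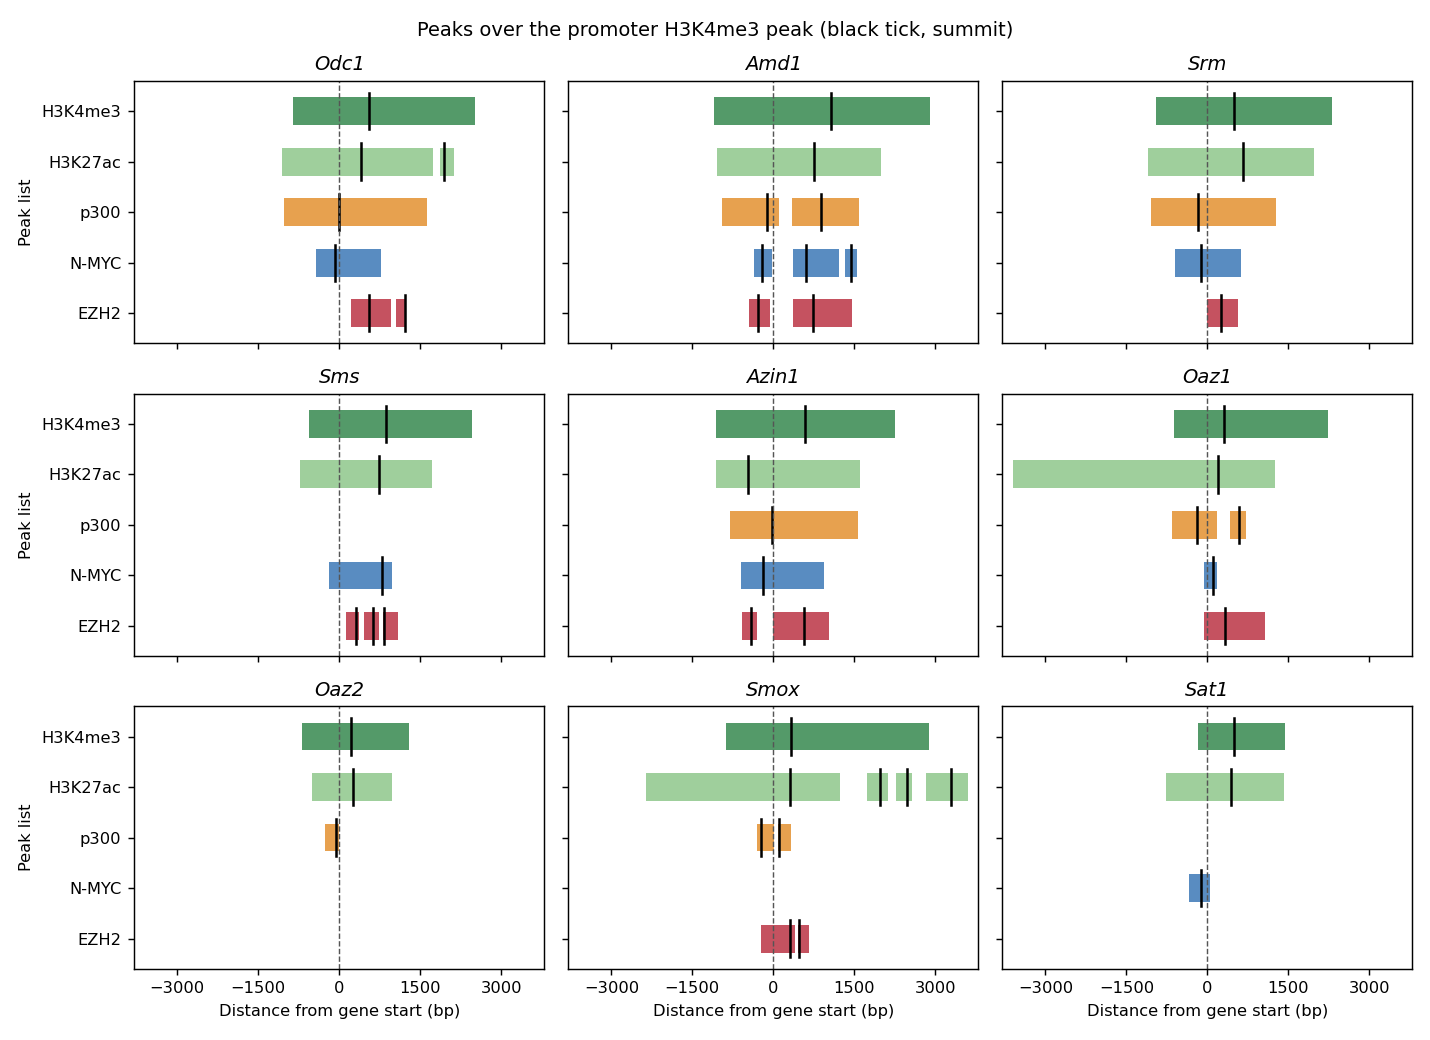
Peaks of 5 lists (rows) over the H3K4me3 peak that reaches each gene's start, as distance from the start in bp along the gene's strand; bars span each peak and black ticks mark summits. At Odc1, Srm and Azin1 the N-MYC and p300 summits sit just before the start and the strongest EZH2 and the H3K4me3 summits after it, at 549 bp for H3K4me3 at Odc1.

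The order of summits was read over the members with both calls. The strongest EZH2 summit lay downstream of the strongest N-MYC summit at 5 of 6 members, Sms being the exception, and the H3K4me3 summit lay downstream of N-MYC at 7 of 7. Over all genes with both calls the shares were 73.0% of 4795 genes and 75.1% of 5711 genes. The gap between N-MYC and EZH2 summits was 634 bp at Odc1, 763 bp at Azin1, 366 bp at Srm, 216 bp at Oaz1, 178 bp at Sms and 137 bp at Amd1, against a median of 324 bp over all such genes. EZH2 summits lay close to H3K4me3 summits, 3 bp apart at Odc1, 11 bp at Smox, 16 bp at Azin1 and 28 bp at Oaz1, and 241 to 321 bp apart at Sms, Srm and Amd1 (median 114 bp over all genes with both). At Sms the EZH2 peak used was tied at 4.64 with another, whose summit lay farther from both the N-MYC and the H3K4me3 summits. The order seen at the members was thus the common one.

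**Figure D3:**
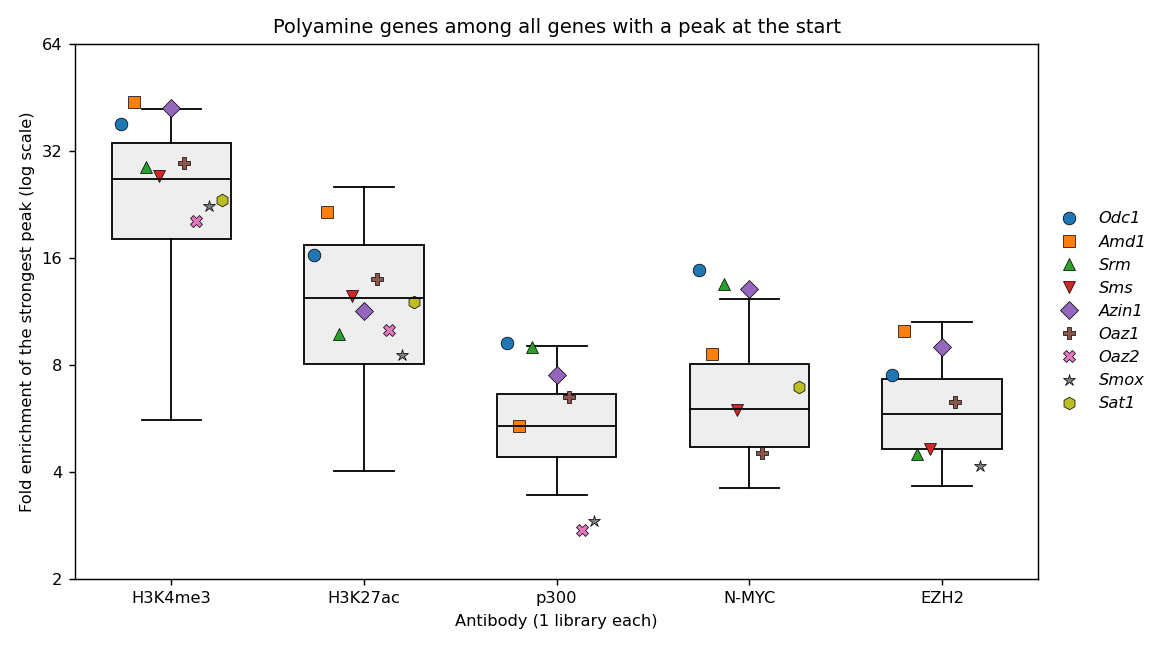
Fold enrichment (log scale) of the strongest peak within 1 kb of the start for all genes with a peak of that list, as boxes of quartiles with whiskers at the 5th and 95th percentiles and a line at the median, and for the members with a peak as symbols. Odc1, Srm and Azin1 lie above the upper whisker for N-MYC, and Oaz2 and Smox lie below the lower whisker for p300.

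Within the members the lists did not rank the genes alike. By N-MYC the order was Odc1 (14.8), Srm (13.5), Azin1 (13.1), Amd1 (8.56), Sat1 (6.92), Sms (5.98) and Oaz1 (4.51). By EZH2 it was Amd1 (9.99), Azin1 (8.96), Odc1 (7.47), Oaz1 (6.30), Sms (4.64), Srm (4.50) and Smox (4.16). H3K4me3 gave Amd1 (44.1), Azin1 (42.3), Odc1 (38.0), Oaz1 (29.6), Srm (28.9), Sms (27.2), Sat1 (23.3), Smox (22.4) and Oaz2 (20.4). The 3 genes with the lowest H3K4me3 were those that lacked EZH2 or N-MYC or both. With no replicate, whether neighbours in these orders differ beyond error cannot be said.

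Calls of EZH2, N-MYC, p300 and H3K27ac were more frequent and those of SUZ12 and H3K27me3 less frequent in the strongest than in the weakest H3K4me3 decile, so the members were also set beside genes of the same decile of H3K4me3 fold enrichment, in which decile 10 is the strongest. Amd1 and Azin1 fell in decile 10, Odc1 in 9, Oaz1 in 7, Srm and Sms in 6, and Oaz2, Smox and Sat1 in 4. EZH2 was called at 99.8% of genes in decile 9, 88.1% in decile 6 and 61.98% in decile 4, N-MYC at 86.1, 73.2 and 66.9% and p300 at 97.5, 90.8 and 83.2%. Summed over the members' own deciles, these shares give 7.56 genes with EZH2, 6.89 with N-MYC and 8.20 with p300, against 7, 7 and 7 observed. The number of members called was therefore near that of other promoters of like H3K4me3. In strength, N-MYC lay above the median of the gene's own decile at Odc1 (14.8 against 6.45), Srm (13.5 against 6.10), Azin1 (13.1 against 7.10), Amd1 (8.56 against 7.10) and Sat1 (6.92 against 5.84). It lay below that median at Sms (5.98 against 6.10) and Oaz1 (4.51 against 6.10). p300 lay above it at Odc1, Srm, Azin1 and Oaz1 and below it at Amd1 (5.38 against 6.15), Smox (2.91 against 5.03) and Oaz2 (2.74 against 5.03). EZH2 lay above it at Odc1, Amd1, Azin1 and Oaz1 and below it at Srm, Sms and Smox. Members thus stood on both sides of like promoters in all 3 lists.

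**Figure D4:**
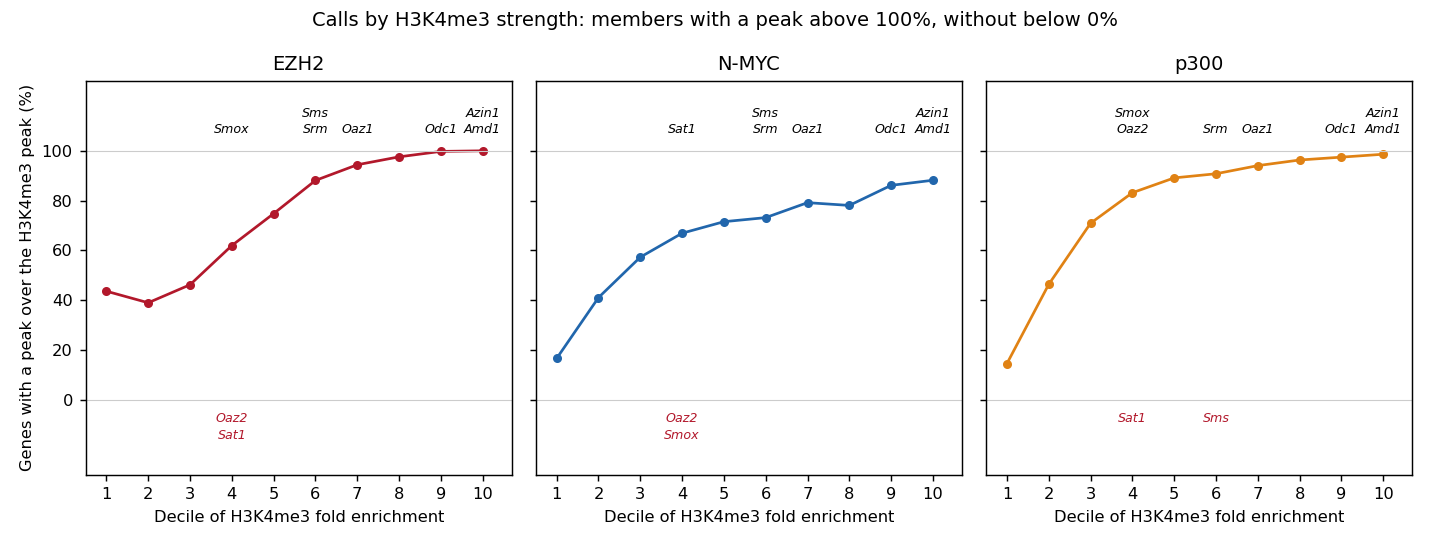
Percent of genes with an EZH2, N-MYC or p300 peak over the promoter H3K4me3 peak (y axis) by decile of H3K4me3 fold enrichment (x axis, 10 strongest). Members with a peak are named above 100% and members without one below 0%, at their decile; the members without EZH2 or N-MYC are all in decile 4.

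Sms and Sat1, the members without p300, are also the 2 members on chromosome X. The p300 calls at Oaz2 (2.74) and Smox (2.91), both on autosomes, were weak, at percentiles 0.403 and 0.821. At a fold enrichment of at least 4 these genes lacked p300 as well, so the match with the chromosome depends on counting weak calls. Among genes with an H3K4me3 peak at the start, p300 was called at 37.0% of 276 genes on X (95% Wilson interval 31.5 to 42.8%) and at 79.5% of 8392 genes on autosomes (78.7 to 80.4%). EZH2 was called at 25.7% on X and 76.2% on autosomes, N-MYC at 32.6% and 67.0%, and H3K27ac at 89.9% and 93.4%. The gap was also present at like H3K4me3. In decile 4, that of Sat1, p300 was called at 17 of 46 genes on X (37.0%, 24.5 to 51.4%) and 85.9% of 820 on autosomes, and EZH2 at 7 of 46 (15.2%, 7.57 to 28.2%) and 64.8%. In decile 6, that of Sms, p300 was called at 23 of 36 genes on X (63.9%, 47.6 to 77.5%) and 92.0% of 822 on autosomes. N-MYC was called at both members. The sex of the animals is not in the labels, and the part of the chromosome in the missing calls at Sms and Sat1 was not tested.

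E-boxes were counted in the promoter windows of the 7 members with an entry (Srm and Azin1 have none). CACGTG was present in 1 of 7, Sms, against 8.91% of 17492 genes. That share was 14.1% among genes with N-MYC on the promoter H3K4me3 peak and 6.39% among all other genes. Those others, called without N-MYC below, include genes with no H3K4me3 peak at the start. Shares at H3K4me3 promoters lacking N-MYC were not read, so the part of H3K4me3 in these gaps was not tested. With CATGTG added, on either strand, the count was 2 of 7 (Sms and Sat1) against 21.1% of genes, 21.5% with and 20.9% without N-MYC. CACGCG, on either strand and added after the data were seen, was present in 3 of 7 (Odc1, Sms and Oaz1), against 13.7% of genes, 25.7% with and 7.89% without N-MYC. Each of these 3 members carried N-MYC, while Amd1 and Sat1 carried N-MYC without either motif in the window. A match describes letters in a window of 300 bp and not a bound site.

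Across the gene and its flanks, promoter included, Smox and Odc1 had the widest H3K27ac. Over the gene record and 10 kb on either side, H3K27ac peaks covered 47.4% of 53.3 kb at Smox, a higher share than at 95.96% of genes with an H3K4me3 peak at the start, whose median was 9.56%. At Odc1 they covered 40.3% of 26.7 kb (percentile 93.2), and at the other 7 members from 3.57% at Sms to 27.2% at Oaz1. By covered length in place of share, Smox (25.3 kb) stood at percentile 97.2 and Odc1 (10.8 kb) at 83.6. Smox had 22 H3K27ac peaks off the promoter H3K4me3 peak, 16 of them with summits inside the record. The strongest of these (9.60), from 131506717 to 131511152, held the only N-MYC peak of the Smox region, a call of 4.84 from 131509767 to 131510009 whose summit lay 18030 bp after the start. No p300 or EZH2 peak was called off the Smox promoter. Upstream of Odc1, an H3K27ac peak of 10.8 ran from 17536780 to 17541229 with an H3K4me3 call of 3.85 inside it.

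Oaz2 had an H3K27ac peak of 8.45 inside the gene, 4325 bp after the start, with a p300 peak of 3.53 in it, above the 2.74 of its promoter. Oaz1 was followed, 8003 to 12267 bp after its start and beyond its record, by 5 H3K27me3 peaks of 3.22 to 5.59. Amd1, Sms and Sat1 had no further peak of the 7 lists within 10 kb of the record. Whether any of these peaks is exonic or intronic, and which gene they act on, was not analysed here.

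**Figure D5:**
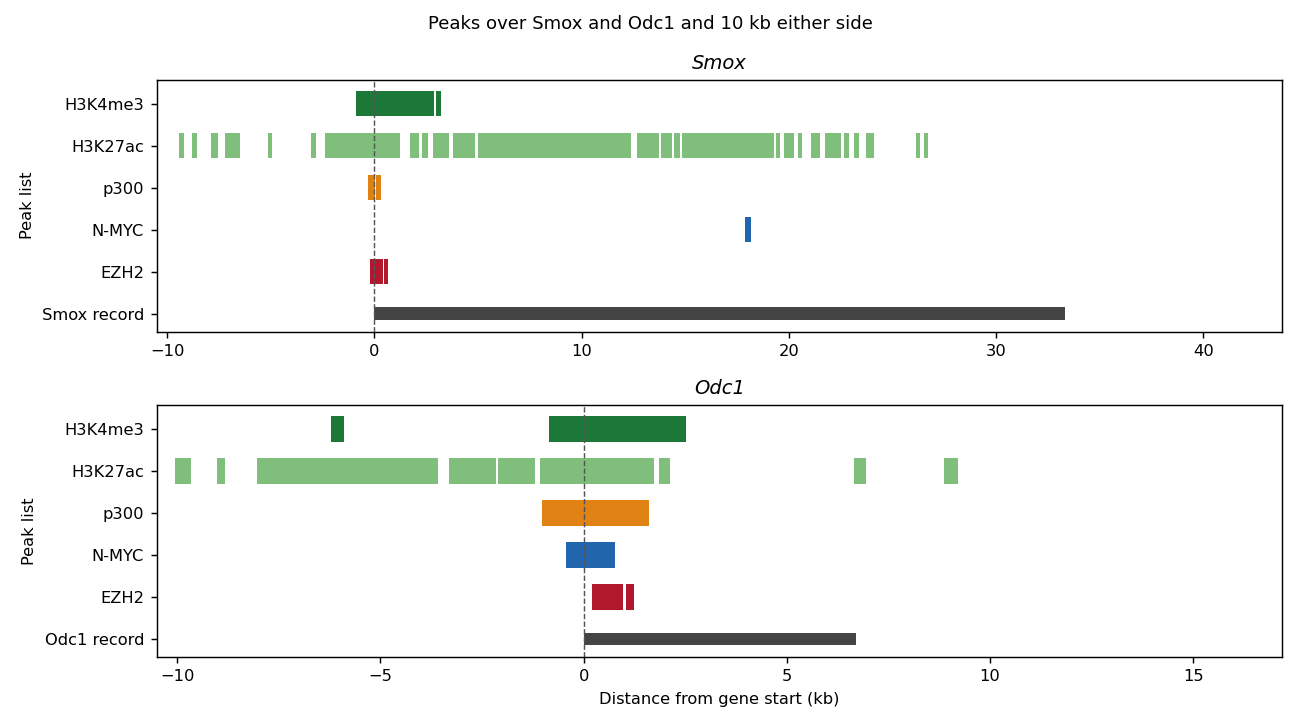
Peaks of 5 lists (rows) over Smox (top) and Odc1 (bottom) and 10 kb on either side, as distance from the gene start in kb; bars span each peak and the dark bar is the gene record. H3K27ac covers 47.4% of the Smox region and 40.3% of the Odc1 region, and off the promoters the other 4 lists show an N-MYC call of 4.84 inside Smox and H3K4me3 calls of 3.75 (Smox) and 3.85 (Odc1).

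The wider pathway was read over 27 further genes, listed by role with earlier results of these data known. N-MYC was called within 1 kb of the start at 15 of 27, EZH2 at 15, p300 at 17, H3K27ac at 20, H3K4me3 at 19, H3K27me3 at 6 and SUZ12 at 3. Of all genes, 31.6% had N-MYC, 43.1% EZH2, 38.3% p300, 49.8% H3K27ac, 49.6% H3K4me3, 23.8% H3K27me3 and 12.2% SUZ12 there. On the H3K4me3 peaks of the 19 genes, N-MYC was called at 15, EZH2 at 16 and p300 at 17. Of all genes with such a peak, 65.9%, 74.6% and 78.2% had them. At Azin2, Adi1 and Atp13a3 the choice of start fixed the H3K4me3 peak, as at Srm. Arg1, Arg2, Oaz3 and Mat1a had no assigned start and were read at both ends of the record. Any call at these genes may lie at either end, whereas the background was read at the start only. The commonest combination, EZH2, N-MYC, p300, H3K27ac and H3K4me3 without SUZ12 or H3K27me3, held 12 genes. These were Oat and Aldh18a1, which connect ornithine with glutamate and proline metabolism, Mat2a, which makes S-adenosylmethionine, the methylthioadenosine salvage genes Mtap, Mri1, Apip and Enoph1, the transporter genes Atp13a3 and Slc3a2, and Dhps, Dohh and Eif5a. The enzymes encoded by Dhps and Dohh form hypusine from spermidine on the translation factor eIF5A, the product of Eif5a. N-MYC values in this group ran from 3.58 at Dohh to 13.8 at Mat2a, and EZH2 values from 4.32 at Mri1 to 13.6 at Eif5a. The combination of calls shared by this group was found at 23.4% of all genes within 1 kb and 50.3% of genes with an H3K4me3 peak.

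The other 15 genes of that list differed in which calls were missing. Mat2b (N-MYC 3.78) and Adi1 (6.00) had N-MYC, p300 and both active marks without EZH2 within 1 kb. Beyond the window, EZH2 (5.83) and a stronger N-MYC peak (6.26) lay on the H3K4me3 peak of Mat2b. Eif5a2, a paralogue of Eif5a, had H3K4me3, H3K27ac, p300, N-MYC (7.29) and EZH2 (4.44) and an H3K27me3 peak of 5.96 in the window. That H3K27me3 peak did not overlap the H3K4me3 peak. Arg2, a mitochondrial arginase, had EZH2 (6.78), SUZ12 (7.80) and H3K27me3 (13.9) and none of the other 4 lists. Azin2, the second antizyme inhibitor gene, had EZH2 (6.26), SUZ12 (5.34) and H3K27me3 (11.5) with H3K4me3 of 4.25 and p300 of 4.65, where Azin1 had H3K4me3 of 42.3 and p300 of 7.51. Slc18b1 had SUZ12 (4.48) and H3K27me3 (8.09), and Mat1a (5.46) and Sat2 (4.28) had H3K27me3 alone. Paox had p300, H3K27ac and H3K4me3, Atp13a2 and Amd2 had H3K27ac and H3K4me3 (with EZH2 of 3.77 on the H3K4me3 peak of Atp13a2 beyond the window), Arg1 and Agmat had H3K27ac alone, and Oaz3 and Satl1 had no peak.

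The genes most like Odc1 were sought over the 7 lists by the Euclidean distance of log2(1 + fold enrichment), with 0 for no peak. The nearest of 17493 genes were Smarcc1 (distance 0.243), a chromatin remodelling subunit, and Nudt6 and Spata5 (0.250 each), with identical values in every list. Among the members Azin1 was the nearest to Odc1 (0.644, rank 113), followed by Srm (1.01, rank 623) and Amd1 (1.15, rank 964), and Oaz2 was the farthest (5.35, rank 6740). Fold enrichments at Smarcc1 were 13.2 for N-MYC, 8.87 for p300, 6.95 for EZH2, 18.2 for H3K27ac and 36.5 for H3K4me3.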

How the data were processed

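Each of 7 immunoprecipitations had 1 deposited narrowPeak list without header; the 2 inputs were not used here. The submitters' processing notes name FastQC, Bowtie2, SAMtools, MACS2 and deepTools and the builds mm10 and GRCm38, without roles, parameters, control library or pooling. The fold enrichment is a linear ratio deposited by the authors; significance was deposited on a −log10 scale (p-value, q-value); a deposited score (10 times the −log10 q) entered no result. A missing peak means no call, and read depth is unknown.

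Of 21887 protein-coding records in RefSeq GRCm38.p6, 17492 had a strand in the promoter table and formed the background. The start was the record's 5′ end. Srm and Azin1 had no strand there, so the record end with the strongest H3K4me3 summit within 1 kb was taken, a choice made after seeing the peaks. The same was done for 3 other pathway genes, and 4 more (Arg1, Arg2, Oaz3 and Mat1a), without such a summit, were read at both ends. A peak counted when it overlapped the window by 1 bp, and the strongest represented a gene. Named genes were all members, pathway genes outside the commonest combination of lists (values for up to 8, by N-MYC or else H3K27me3) and the 3 genes nearest to Odc1. Members and lists were chosen with earlier results of these data known. Intervals are 95% Wilson intervals, cover counting error only and treat genes as independent. The overlap step was tested on simulated data. Python 3.11.15, pandas 2.3.3 and scipy 1.17.1 were used.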

Additional observations from a re-analysis of the deposited data

How the results depend on the processing

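Windows of 500 bp or 2 kb and any listed transcript start left the number of members with each list as reported. A q-value of at most 1e-05 or a fold enrichment of at least 4 took p300 from 7 to 5 members, without Oaz2 and Smox. With every list limited to its 9798 most significant peaks, EZH2 stood at 5 (without Sms and Smox), p300 at 5 and H3K27ac at 8 (without Smox). Requiring summits inside took H3K4me3 to 8 and, over the H3K4me3 peak, EZH2, N-MYC and p300 to 6 each and H3K27ac to 8, Amd1 being lost. E-boxes were found in 1 of 7 windows for CACGTG, in 2 with CATGTG added and in 3 for CACGCG, a motif added after seeing the data. Over the whole H3K4me3 peak, SUZ12 and H3K27me3 were each called at 1 further pathway gene (Azin2) in place of 3 and 6. Arg2, Slc18b1, Mat1a and Sat2 had no H3K4me3 peak in the window and so could not be called under that setting. The E-box searches around N-MYC summits and across the H3K4me3 peak were not run, since no genome sequence was used here. No paired analysis was possible because each antibody had 1 library. Without read counts or replicates, a fold enrichment has no error, and a missing call near the threshold cannot be told apart from a weak one.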
